A study of Mus musculus with 12 samples.

Results

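The genes described here are 43 genes of the amino acid stress response run by the transcription factor ATF4, together with the amino acid synthesis, uptake and tRNA charging genes it is known for. They were found by gene name among the 47643 genes of the expression table, and all 43 were listed. They comprised 11 regulators, 7 genes of serine and one-carbon metabolism, 5 of asparagine, proline and cysteine synthesis, 9 amino acid transporters and 11 cytosolic tRNA synthetases. Of these, 40 reached at least 1 FPKM (fragments per kilobase of transcript, set relative to the library's total) in at least 3 libraries and were tested. Vldlr, Cbs and Slc7a3 did not reach this level.

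Expression was measured by bulk RNA sequencing of C57BL/6 mouse spleen cells, naive CD4+ T cells by their label. The labels give neither the age nor the sex of the mice. Every culture was stimulated for 3 days on wells coated with 2 μg/ml each of antibodies to CD3 and CD28. Each of the 4 groups had 3 libraries. Wild-type (WT) cells received no cytokine in the Th0 group, 20 ng/ml IL-6 and 2 ng/ml TGF-β in what is called the IL-6 group here, and 20 ng/ml TNF and 2 ng/ml TGF-β in the TNF group. The Tnfr2-/- group received the same TNF and TGF-β, and the TNF group is its WT control. Tnfr2-/- cells lack TNF receptor 2, the product of Tnfrsf1b. The groups analysed here included neither TGF-β alone nor Tnfr2-/- Th0 cells, so an effect of TNF or IL-6 cannot be told apart from that of TGF-β, nor an effect of the genotype under TNF from one without it. The labels do not say whether the 3 libraries of a group came from separate mice or cultures, so a p-value here speaks of the spread of these libraries alone, which can be technical.

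As background, the integrated stress response starts when one of several kinases phosphorylates the translation initiation factor eIF2α. The kinase GCN2 does so when uncharged tRNAs accumulate, and PERK does so when unfolded protein accumulates in the endoplasmic reticulum (ER). General translation then falls while the Atf4 mRNA is translated more, so ATF4 protein can change with little change in its mRNA, which is all that was measured here. ATF4 pairs with C/EBP and other bZIP factors at C/EBP-ATF response elements near genes that make, import and activate amino acids. Activated T cells raise serine synthesis, one-carbon metabolism and amino acid transport to supply growth and division.

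The promoter sequences show which of these genes carry the core of that element. The letters TGATGNAA were searched on both strands of RefSeq windows (GRCm38.p6) from 250 bases before to 50 bases after each gene's start. A window was found for 33 of the 43 genes. The letters stood in 13 of these (39.4%), against 1219 of 27025 genes with a window of the same length (4.51%). By role they stood in 5 of 7 tRNA synthetases, 4 of 10 regulators, 2 of 4 genes of asparagine, proline and cysteine synthesis, 2 of 5 transporters and 0 of 7 serine and one-carbon genes. Among synthetases outside the 43 genes, they stood in 0 of 6 other cytosolic and 0 of 14 mitochondrial enzymes. A match describes these letters and is not a shown binding site, and a gene without a match may carry an element elsewhere or in other letters.
Matches are shown in windows of 30 bases, 5′ to 3′ on the strand that reads TGATGNAA, with the 8 letters of the match in capitals, so that the shared core and the differing flanks can be compared. The first ones belong to regulators.
Nupr1 chr7:126625562-126625591 (+): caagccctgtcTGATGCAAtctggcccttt
Trib3 chr2:152344028-152344057 (+): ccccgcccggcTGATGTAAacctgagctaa
Chac1 chr2:119351038-119351067 (−): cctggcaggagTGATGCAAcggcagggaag
Vldlr chr19:27216809-27216838 (−): gctaggagcgcTGATGCAActattgctgct
The next belong to asparagine and proline synthesis and to transporters.
Asns chr6:7693214-7693243 (−): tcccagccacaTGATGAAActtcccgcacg
Pycr1 chr11:120643833-120643862 (−): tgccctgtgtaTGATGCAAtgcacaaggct
Slc7a11 chr3:50443661-50443690 (−): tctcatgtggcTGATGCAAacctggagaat
Slc7a11 chr3:50443642-50443671 (+): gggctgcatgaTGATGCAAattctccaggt
Slc1a4 chr11:20332699-20332728 (+): caggctggagaTGATGCAAcgcaggaggca
The last belong to tRNA synthetases.
Aars chr8:111033840-111033869 (−): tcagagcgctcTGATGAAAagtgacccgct
Gars chr6:55037960-55037989 (−): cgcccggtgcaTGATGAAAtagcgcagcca
Iars chr13:49682126-49682155 (−): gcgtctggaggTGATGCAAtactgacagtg
Tars chr15:11399655-11399684 (+): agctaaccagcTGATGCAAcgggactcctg
Yars chr4:129189895-129189924 (+): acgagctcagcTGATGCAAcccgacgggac
Of the matches shown, those of Asns, Gars and Aars read TGATGAAA, that of Trib3 read TGATGTAA and the others TGATGCAA. Slc7a11 carried the letters on both strands, 47 and 66 bases before its start. The 250 bases before the RefSeq start of Nupr1, the member with the largest change, are shown in the direction of the gene. There the match reads as its reverse complement TTGCATCA in capitals, 110 bases before that start. These bases lie inside the longer GENCODE span given for Nupr1 further on.
Nupr1 chr7:126625471-126625720 (−): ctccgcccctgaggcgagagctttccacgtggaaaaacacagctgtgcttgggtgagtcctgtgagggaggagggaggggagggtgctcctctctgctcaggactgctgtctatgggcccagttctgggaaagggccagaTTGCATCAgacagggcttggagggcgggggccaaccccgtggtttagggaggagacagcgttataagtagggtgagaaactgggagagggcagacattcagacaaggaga

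The tested contrast of each comparison is a difference in log2(FPKM + 1) between group means, given with its standard error (SE), and a gene was called higher or lower at a Benjamini-Hochberg adjusted p under 0.05 in the limma fit over 13082 genes. Adding 1 FPKM understates the change of low genes. Depth was estimated from the files at 17000000 to 24000000 fragments per library, at which 3 fragments on 1 kilobase correspond to 0.125 to 0.176 FPKM, a limit that covers counting error only. Tnfrsf1b was 74.4, 108 and 70.8 FPKM in the WT TNF libraries and 4.87, 3.71 and 3.19 FPKM in the Tnfr2-/- libraries, which are numbered 1, 2 and 4 in that order throughout. The labelled cell type did not hold everywhere, since Cd8a exceeded Cd4 in 11 of 12 libraries. T cell markers also differed between WT groups. Against Th0, Cd8a (1.52) and Cd8b1 (0.93) were higher and Cd3d (−0.52) lower in the TNF group. In the IL-6 group Cd8a (1.44) was higher, and Cd3d (−0.51) and Cd5 (−0.69) lower. Cd4 was higher in the TNF than in the IL-6 group (2.18). Of 10 myeloid markers, 2 were lower in the TNF group and 3 in the IL-6 group against Th0, and 0 higher. The part of this in the WT differences was not tested. The summed FPKM of 8 B cell markers was 769 to 1222 in Th0, 422 to 938 in the IL-6 group, 263 to 340 in the TNF group, and 1960.0, 3514 and 4307 in the Tnfr2-/- libraries. All 8 were called higher in Tnfr2-/- cells than in the TNF group, and all 8 lower in the TNF group than in Th0. In bulk RNA, fewer cells of a type and less RNA per cell cannot be told apart.

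Without TNFR2 under TNF and TGF-β, most of the synthesis and tRNA charging genes were lower, while Atf4 itself and 2 stress regulators were higher. Of the 40 tested genes, 4 were higher (10%) and 21 lower (52.5%), against 19.9% and 17.5% of all tested genes. The median difference was −0.50, and 0.00 over all tested genes. The lower genes were 6 of 7 of serine and one-carbon metabolism, 3 of 4 of asparagine, proline and cysteine synthesis, 8 of 11 tRNA synthetases, 2 of 8 transporters and 2 of 10 regulators. The higher genes were Atf4, Ddit3, Ppp1r15a and Slc3a2. Scaled to the sum of the CD3 and CD5 genes, an alternative chosen after the data were seen that raised the median of all genes to 0.32, 6 genes were higher and 15 lower. Under that scaling 33.2% of all genes were higher and 8.78% lower.

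The WT comparisons had fewer calls. In the TNF group against Th0, 4 of 40 genes were higher (10%) and 5 lower (12.5%), against 18.7% and 13% of all tested genes. In either direction 22.5% of the 40 genes were called, against 31.7%, and their median was −0.08 against 0.07. In the IL-6 group against Th0, 4 were higher (10%) and 6 lower (15%), against 14.1% and 9.15% of all tested genes, and their median was −0.10 against 0.04. Between the cytokine pairs, 3 were higher in the TNF group and 0 lower, against 7.31% and 5.50%, and their median was −0.02 against 0.00. Apart from the genes lower in the IL-6 group, these shares lay near or under those of all tested genes. Scaled to the CD3 and CD5 genes, 0 genes were lower and 13 higher in the IL-6 group against Th0, against 3.76% and 35.8% of all genes. That scaling moved the median of all genes to 0.43. The falls described below were therefore called relative to the library total and not relative to those T cell genes. The same scaling gave 7 higher and 1 lower in the TNF group against Th0, against 25.8% and 5.72% of all genes, with a median of all genes of 0.27. Both comparisons share the Th0 libraries, and the Tnfr2-/- comparison uses the TNF libraries as its control.

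**Figure D1:**
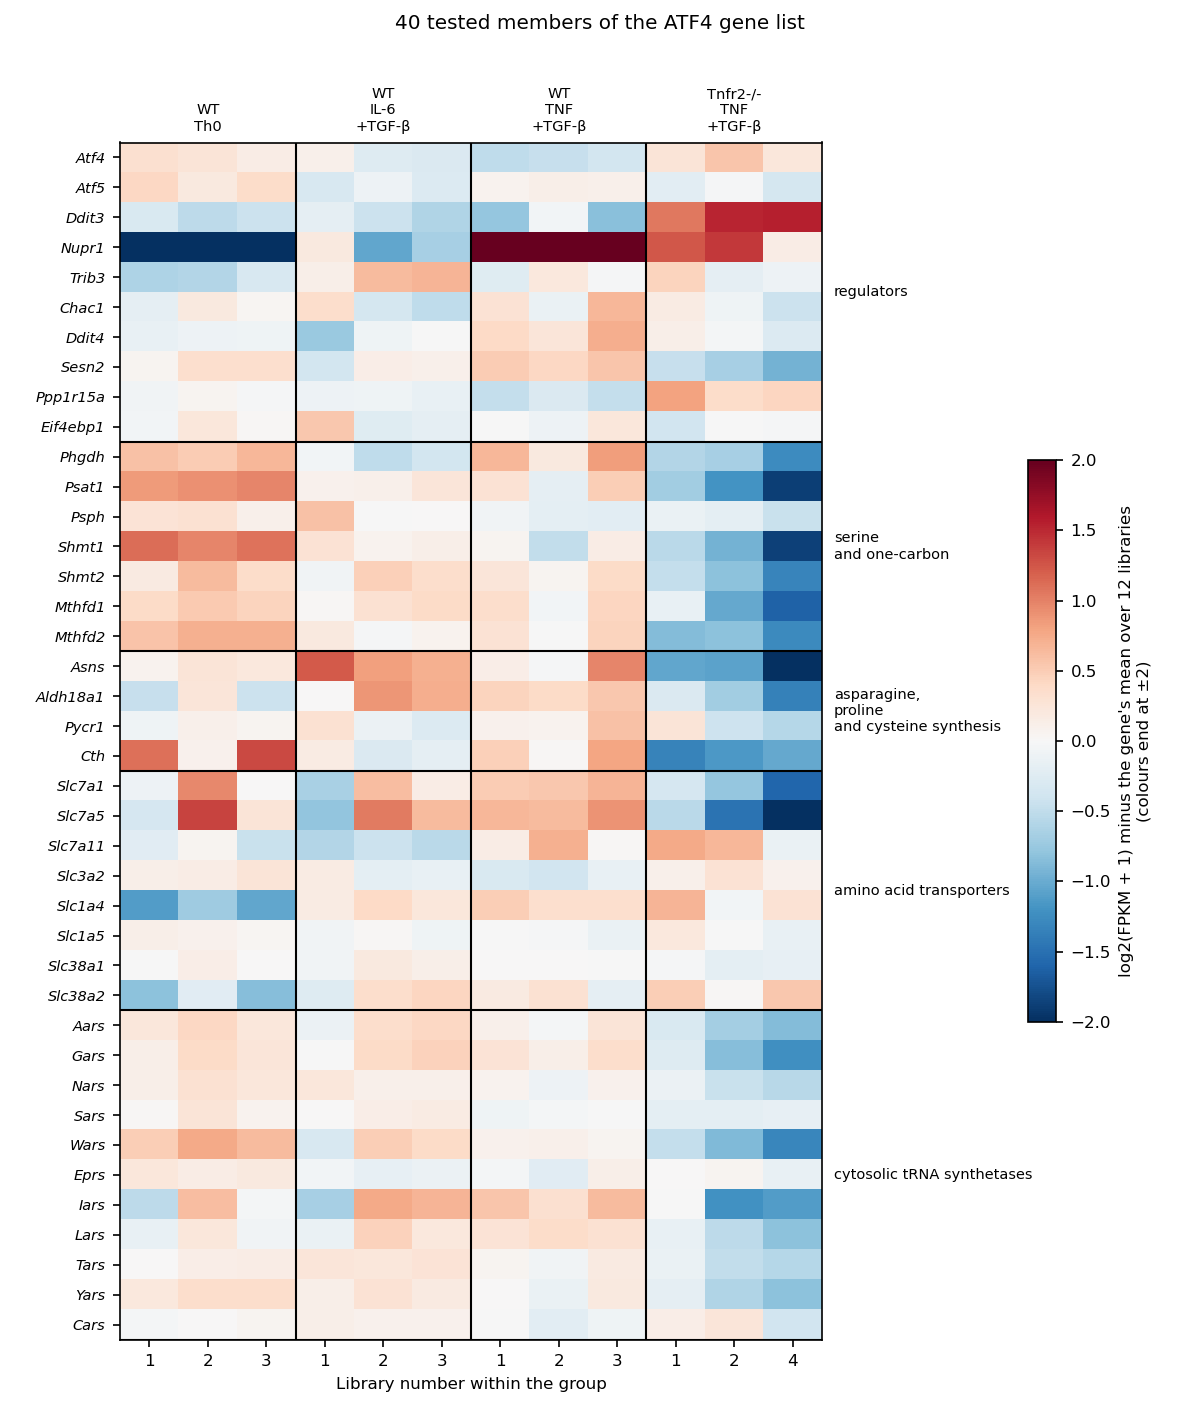
Heat map of log2(FPKM + 1) minus each gene's mean over the 12 libraries, for the 40 tested genes in rows and the libraries in columns, with colours ending at −2 and 2. The Tnfr2-/- columns are below the mean for most synthesis genes and tRNA synthetases and above it for Atf4, Ddit3 and Ppp1r15a.

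Among the regulators, Nupr1 (chr7:126623249-126630861, GRCm38) differed most. It encodes a small nuclear protein induced by many stresses. Its values were 1.17, 0.07 and 0.38 FPKM in Th0, 21.5, 8.55 and 11.4 in the IL-6 group, 185, 167 and 229.9 in the TNF group, and 45.7, 51.5 and 20.8 in Tnfr2-/- cells. Th0 was lowest and the TNF group highest, both without overlap with any other group, while 1 library of the IL-6 group reached into the range of the Tnfr2-/- group. Nupr1 rose by 7.04 ± 0.38 in the TNF group (adjusted p = 1.41e-07) and by 3.24 ± 0.38 in the IL-6 group (adjusted p = 6.56e-05), and was 3.80 ± 0.38 above the IL-6 group in the TNF group (adjusted p = 3.20e-05). The difference was −2.36 ± 0.38 in Tnfr2-/- against WT cells (adjusted p = 0.000588). The Th0 values of replicates 2 and 3 rest on few fragments, so the size of the rise depends on the constant added.

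Atf4 (chr15:80255184-80257541) moved in the opposite direction at the mRNA level. Its values were 109, 105 and 97.3 FPKM in Th0, 94.1, 73.2 and 71.5 in the IL-6 group, 61.4, 63.3 and 67.6 in the TNF group, and 105, 129 and 103 in Tnfr2-/- cells. The TNF libraries of WT cells were the lowest of the 4 groups and did not overlap with any other, while the Tnfr2-/- and Th0 libraries overlapped. Atf4 fell in the TNF group (−0.69 ± 0.13, adjusted p = 0.00213), a call lost when scaled to the CD3 and CD5 genes, and was higher in Tnfr2-/- than in WT cells (0.79 ± 0.13, adjusted p = 0.000703). Its difference from Th0 in the IL-6 group was −0.39 ± 0.13 (adjusted p = 0.0522).

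Ddit3 (chr10:127290774-127296288), which encodes CHOP, a bZIP factor of prolonged ER and amino acid stress, was highest without TNFR2. It was 36.8, 31.4 and 33.5 FPKM in Th0, 40.2, 33.5 and 29.5 in the IL-6 group and 26.3, 43.6 and 24.9 in the TNF group, and these WT groups overlapped. In Tnfr2-/- cells it was 95.1, 133 and 135 FPKM, above every WT library, with a difference of 1.93 ± 0.21 from WT (adjusted p = 4.19e-05). Ppp1r15a encodes GADD34, which guides a phosphatase to eIF2α and so ends the response. It was 12.6, 14.4 and 12.6 FPKM in the TNF group and 32.2, 23.5 and 24.5 in Tnfr2-/- cells (0.95 ± 0.14, adjusted p = 0.000249). Its Th0 values of 16.9, 18.7 and 17.6 FPKM lay between those groups, and its fall in the TNF group against Th0 (−0.40 ± 0.14, adjusted p = 0.0424) was lost on leaving out any 1 of the 6 libraries.

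Sesn2 and Ddit4 encode proteins that restrain the growth kinase complex mTORC1, and Sesn2 is also a leucine sensor. Sesn2 was 10.8, 13.4 and 13.4 FPKM in Th0, 7.84, 11.5 and 11.2 in the IL-6 group, 15.1, 14.1 and 15.8 in the TNF group and 7.26, 6.20 and 4.91 in Tnfr2-/- cells. Every Tnfr2-/- value was below every WT value, and Sesn2 fell in Tnfr2-/- against WT cells (−1.18 ± 0.18, adjusted p = 0.000351). Ddit4, which encodes the mTORC1 inhibitor REDD1, was 37.9, 34.1 and 47.7 FPKM in the TNF group and 25.7, 26.5 and 26.7 in Th0. That rise (0.57 ± 0.20, adjusted p = 0.0451) was also lost on leaving out any 1 of the 6 libraries, and its difference in Tnfr2-/- cells was −0.52 ± 0.20 (adjusted p = 0.0572). Ddit4 was also higher in the TNF than in the IL-6 group (0.74 ± 0.20, adjusted p = 0.0279), a call lost without IL-6 replicate 1 or TNF replicate 1 or 3 and under CD3 and CD5 scaling.

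Trib3 encodes a pseudokinase that is a target and feedback inhibitor of ATF4. It was 2.04, 2.11 and 2.72 FPKM in Th0 and 4.09, 6.27 and 6.45 in the IL-6 group, without overlap, and rose there (0.99 ± 0.22, adjusted p = 0.00664). It was 2.93, 4.39 and 3.59 FPKM in the TNF group, 0.49 ± 0.22 from Th0 (adjusted p = 0.113), and the Tnfr2-/- libraries overlapped with these. Atf5, a related bZIP factor gene, fell in the IL-6 group from 1.75 ± 0.22 to 0.86 ± 0.15 FPKM (SD, n = 3 each; adjusted p = 0.0219), a call lost without Th0 replicate 1 or 3 or IL-6 replicate 3. Chac1, which encodes a glutathione-degrading enzyme, ranged over the 12 libraries from 0.20 to 1.70 FPKM, and Eif4ebp1, which encodes a translation repressor, from 58.7 to 112 FPKM, with 0 calls in the 4 comparisons. Vldlr, a lipoprotein receptor gene that was not tested, was listed at 0 in all 3 Tnfr2-/- libraries and at 0.33, 1.23 and 0.36 FPKM in the Th0 libraries. Th0 is not the WT control of Tnfr2-/- cells, so these values do not show a difference by genotype.

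**Figure D2:**
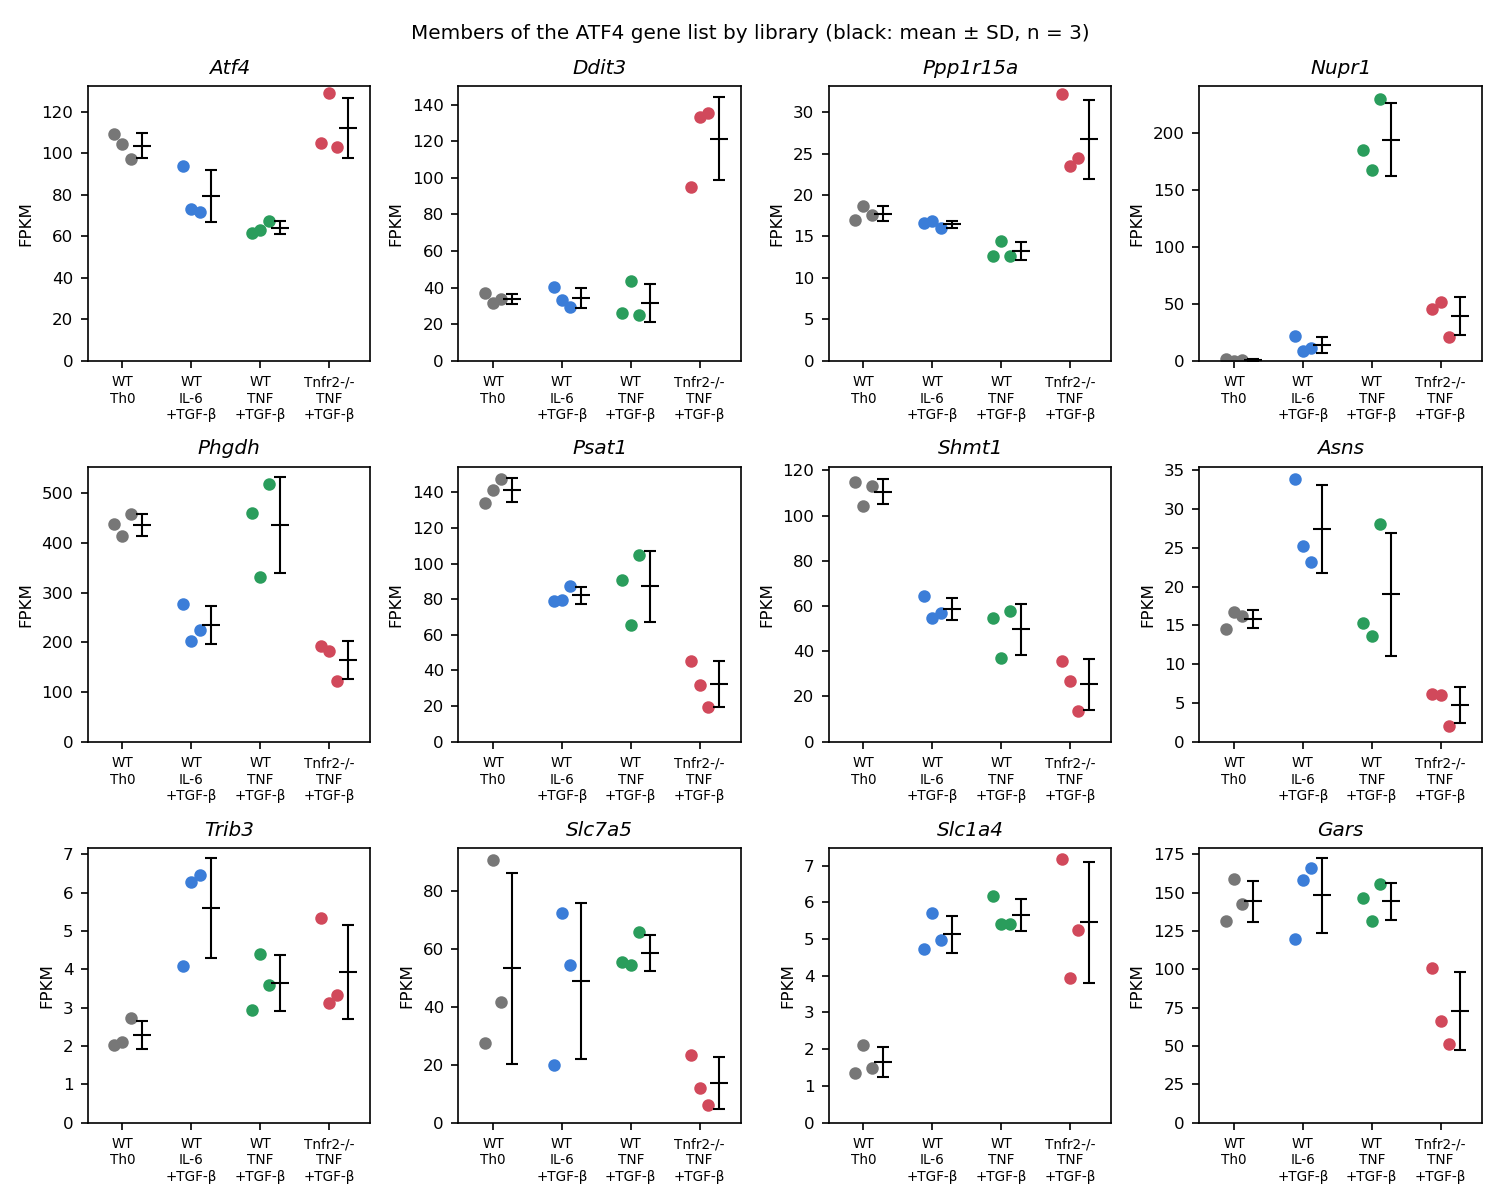
FPKM of 12 of the genes in each library (points) by group, with the group mean and SD (n = 3). Nupr1 is highest in the TNF group, Ddit3 and Ppp1r15a are highest in Tnfr2-/- cells, and Phgdh, Psat1 and Asns are lowest there.

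Serine synthesis starts with Phgdh (chr3:98313170-98339990), which encodes the enzyme that commits a glycolytic intermediate to serine. Phgdh was 437, 413 and 457 FPKM in Th0, 277, 203 and 224 in the IL-6 group, 459, 330.5 and 518 in the TNF group and 192, 182 and 121 in Tnfr2-/- cells. The Th0 and TNF libraries overlapped and lay above the IL-6 libraries, and the Tnfr2-/- libraries were the lowest. Phgdh fell in the IL-6 group (−0.90 ± 0.20, adjusted p = 0.00699), a call lost when scaled to the CD3 and CD5 genes, and was −0.02 ± 0.20 from Th0 in the TNF group (adjusted p = 0.946). It was higher in the TNF group than in the IL-6 group (0.88 ± 0.20, adjusted p = 0.0125), a call lost without TNF replicate 1 or 3. In Tnfr2-/- against WT cells it fell (−1.40 ± 0.20, adjusted p = 0.000271). A pseudogene of Phgdh is listed separately in the table, and reads shared between the copies could have been split.

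Psat1 encodes the transaminase of the next step. It was 134, 142 and 148 FPKM in Th0, 79.02, 79.8 and 87.6 in the IL-6 group, 91.05, 65.8 and 105 in the TNF group and 45.3, 31.8 and 19.5 in Tnfr2-/- cells. Th0 was highest and Tnfr2-/- lowest, and both cytokine groups of WT cells overlapped between them. In Tnfr2-/- against WT cells it fell (−1.46 ± 0.25, adjusted p = 0.000786). The differences from Th0 were −0.71 ± 0.25 in the TNF group (adjusted p = 0.045) and −0.77 ± 0.25 in the IL-6 group (adjusted p = 0.0406), and each was lost on leaving out Th0 replicate 1, 2 or 3, on leaving out replicate 1 or 2 of the cytokine group, and under TPM scaling. Psph, the last enzyme of the pathway, ranged from 31.2 to 64.5 FPKM and was not called in the 4 comparisons. Its difference in Tnfr2-/- cells was −0.10, with a 95% interval of −0.45 to 0.26.

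The one-carbon enzymes move the carbon of serine onto folate. Shmt1, the cytosolic serine hydroxymethyltransferase gene, was 115, 104 and 113 FPKM in Th0, 64.3, 54.8 and 57.1 in the IL-6 group, 54.5, 36.9 and 57.9 in the TNF group and 35.8, 26.6 and 13.6 in Tnfr2-/- cells. Each cytokine group lay below Th0 without overlap, and Tnfr2-/- lay below the TNF group. Shmt1 fell in the TNF group against Th0 (−1.16 ± 0.28, adjusted p = 0.0076) under every alternative run. It also fell in the IL-6 group (−0.90 ± 0.28, adjusted p = 0.0332), a call lost under TPM and CD3 and CD5 scaling and without any Th0 library or IL-6 replicate 2 or 3, and in Tnfr2-/- cells (−1.02 ± 0.28, adjusted p = 0.013), lost without TNF replicate 3.

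Shmt2, its mitochondrial counterpart, was 153, 135 and 169 FPKM in the TNF group and 92.7, 73.01 and 50.8 in Tnfr2-/- cells (−1.10 ± 0.21, adjusted p = 0.00199). Its Th0 values of 146, 199.9 and 166 FPKM and the IL-6 group values of 123, 181 and 165 FPKM overlapped with those of the TNF group. Both folate dehydrogenase genes also fell without TNFR2. Mthfd2, the mitochondrial one, was 64.7, 71.5 and 71.01 FPKM in Th0, 49.8, 42.5 and 45.2 in the IL-6 group, 53.1, 43.01 and 59.2 in the TNF group and 23.2, 24.02 and 17.2 in Tnfr2-/- cells. Its fall in Tnfr2-/- cells (−1.23 ± 0.15, adjusted p = 9.05e-05) had the smallest p-value among these enzymes, and its fall in the IL-6 group (−0.58 ± 0.15, adjusted p = 0.016) was lost without Th0 replicate 2 or 3 or IL-6 replicate 2 or 3 and under CD3 and CD5 scaling. Mthfd1, the cytosolic one, was 73.1, 54.6 and 76.9 FPKM in the TNF group and 51.1, 27.6 and 17.9 in Tnfr2-/- cells (−1.17 ± 0.28, adjusted p = 0.00736), and its libraries in the WT groups overlapped, with Th0 at 74.7, 81.9 and 77.5 and the IL-6 group at 58.1, 70.6 and 74.8 FPKM. Summed over the 7 genes, FPKM were 1023 to 1079 in Th0, 675 to 717 in the IL-6 group, 703 to 1022 in the TNF group and 271 to 479 in Tnfr2-/- cells.

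Asns (chr6:7675169-7693254) encodes asparagine synthetase, a classic ATF4 target. It was 14.6, 16.7 and 16.2 FPKM in Th0, 33.8, 25.2 and 23.1 in the IL-6 group, 15.3, 13.6 and 28.1 in the TNF group and 6.18, 6.03 and 2.07 in Tnfr2-/- cells. The IL-6 libraries all lay above Th0, the TNF libraries overlapped with both, and the Tnfr2-/- libraries were the lowest. Asns fell in Tnfr2-/- against WT cells (−1.83 ± 0.33, adjusted p = 0.0012), while its difference in the IL-6 group against Th0 did not pass the test (0.74 ± 0.33, adjusted p = 0.133). Cth makes cysteine from cystathionine. It was 8.33, 3.66 and 9.96 FPKM in Th0, 3.89, 2.59 and 2.85 in the IL-6 group, 5.11, 3.43 and 6.54 in the TNF group and 0.74, 0.98 and 1.15 in Tnfr2-/- cells, the lowest again. Cth fell in Tnfr2-/- cells (−1.59 ± 0.30, adjusted p = 0.00166). Its fall in the IL-6 group (−0.94 ± 0.30, adjusted p = 0.0417) came with overlapping libraries and was lost without Th0 replicate 1 or 3 or IL-6 replicate 2 or 3 and under TPM and CD3 and CD5 scaling.

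Proline synthesis starts with Aldh18a1, the pyrroline-5-carboxylate synthase gene. Aldh18a1 was 26.8, 44.1 and 27.3 FPKM in Th0, 37.4, 68.9 and 61.9 in the IL-6 group, 51.05, 48.5 and 54.2 in the TNF group and 30.1, 22.6 and 13.9 in Tnfr2-/- cells. It fell in Tnfr2-/- against WT cells (−1.24 ± 0.29, adjusted p = 0.00606), and the Tnfr2-/- and Th0 libraries overlapped. Pycr1, which encodes the enzyme that completes proline, ranged from 1.51 to 4.62 FPKM and was not called, with a Tnfr2-/- difference of −0.49 (95% interval −1.03 to 0.04). Cbs, which encodes the enzyme that makes cystathionine and was not tested, was 0.55, 0.36 and 0.40 FPKM in the Th0 libraries and was listed at 0 in all 3 Tnfr2-/- libraries. Th0 is not the WT control of that group. With no filter on low values, 1 of 5 genes of this role, Cbs, was called lower in the TNF group against Th0 (6.34% of all genes). In Tnfr2-/- against WT cells 3 of 5 were lower without the filter (9.34% of all genes), the same count as with it.

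Of the transporters, those called in Tnfr2-/- cells did not all move the same way. Slc7a5 encodes the light chain of LAT1, the main importer of large neutral amino acids in activated T cells, and Slc3a2 the heavy chain it pairs with. Slc7a5 was 27.4, 90.5 and 41.8 FPKM in Th0, 19.8, 72.5 and 54.5 in the IL-6 group, 55.5, 54.3 and 65.8 in the TNF group and 23.5, 11.8 and 6.04 in Tnfr2-/- cells. Its libraries were spread widely within Th0 and the IL-6 group, with replicate 2 the highest of each. Slc7a5 fell in Tnfr2-/- against WT cells (−2.19 ± 0.54, adjusted p = 0.0079), a call lost with the replicate number added to the fit. Slc3a2 was 194, 199 and 214 FPKM in Th0, 201, 157 and 161 in the IL-6 group, 144, 137 and 161 in the TNF group and 193, 219 and 189.97 in Tnfr2-/- cells. It was higher in Tnfr2-/- than in WT cells (0.44 ± 0.12, adjusted p = 0.0144), a call lost without TNF replicate 1 or 2 or Tnfr2-/- library 2. It was lower in the TNF group than in Th0 (−0.46 ± 0.12, adjusted p = 0.0143), a call lost without Th0 replicate 3 or TNF replicate 1 or 2 and under CD3 and CD5 scaling.

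Slc7a1, the main carrier gene for arginine and lysine, shared the spread of Slc7a5. It was 27.1, 57.2 and 29.1 FPKM in Th0, 18.1, 45.01 and 32.3 in the IL-6 group, 41.5, 42.8 and 47.3 in the TNF group and 22.8, 16.5 and 8.99 in Tnfr2-/- cells. Tnfr2-/- values lay below those of the TNF group (−1.48 ± 0.37, adjusted p = 0.0092), a call lost with the replicate number added to the fit. Replicate 2 was again the highest of Th0 and of the IL-6 group. Slc7a3, a related carrier gene that was not tested, ranged from 0 to 0.87 FPKM. With no filter on low values, 3 of 9 transporters, Slc7a3 among them, were called lower in Tnfr2-/- against WT cells (9.34% of all genes).

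Carriers for small neutral amino acids differed between Th0 and the cytokine groups. Slc1a4, which encodes the carrier ASCT1 for serine and alanine, was 1.35, 2.11 and 1.49 FPKM in Th0, 4.73, 5.70 and 4.97 in the IL-6 group, 6.17, 5.41 and 5.41 in the TNF group and 7.18, 3.93 and 5.24 in Tnfr2-/- cells. Every library with cytokines lay above every Th0 library. Slc1a4 rose in the TNF group (1.34 ± 0.20, adjusted p = 0.000342) and in the IL-6 group (1.22 ± 0.20, adjusted p = 0.000742), and the Tnfr2-/- difference was −0.08 (95% interval −0.51 to 0.35). Slc38a2, which encodes the glutamine and alanine carrier SNAT2, was 24.9, 38.1 and 24.3 FPKM in Th0 and 50.96, 55.8 and 39.3 in the TNF group (0.74 ± 0.23, adjusted p = 0.0312). In the IL-6 group it was 37.5, 57.5 and 60.7 FPKM (0.81 ± 0.23, adjusted p = 0.0251), with 1 Th0 library inside that range. Both calls were lost without Th0 replicate 1 or 3 and with no filter on low values. That in the TNF group was also lost without TNF replicate 1 or 2. That in the IL-6 group was also lost without IL-6 replicate 2 or 3 and with only the 2 groups compared. Slc1a5, the gene of the glutamine carrier ASCT2, ranged from 155 to 198 FPKM, Slc38a1 from 28.9 to 38.5 FPKM and the cystine exchanger gene Slc7a11 from 0.01 to 1.56 FPKM, with 0 calls in the 4 comparisons.

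The cytosolic tRNA synthetases, which load amino acids onto tRNAs, had 0 calls of 11 in each WT comparison. Against Th0, CD3 and CD5 scaling gave 6 of 11 higher in the IL-6 group (median 0.45, against 0.43 for all genes), where 35.8% of all genes were higher. In the TNF group it gave 1 higher, where 25.8% of all genes were higher. Median-ratio scaling gave 2 lower there, where 15.8% of all genes were lower. Against the TNF group, 8 of 11 were lower and 0 higher in Tnfr2-/- cells, with a median of −0.56. Scaled to the CD3 and CD5 genes, 2 were lower and 1, Cars, was higher, where 8.78% and 33.2% of all genes were. The median was −0.21 against 0.32 for all genes, and the other calls were lost. The glycyl-tRNA synthetase gene Gars was 132, 159 and 142 FPKM in Th0, 119.96, 158 and 166 in the IL-6 group, 146, 132 and 155 in the TNF group and 101, 66.5 and 51.2 in Tnfr2-/- cells. The WT groups overlapped and the Tnfr2-/- libraries were below them all (−1.03 ± 0.21, adjusted p = 0.00274). Wars, which charges tryptophan, was 66.9, 67.8 and 65.8 FPKM in the TNF group and 44.9, 33.7 and 24.99 in Tnfr2-/- cells (−0.97 ± 0.22, adjusted p = 0.00564). Gars and Wars were the 2 still called lower under CD3 and CD5 scaling. With the replicate number added to the fit, where Tnfr2-/- library 4 carries its own term, 2 of 11 were called lower, Gars and Lars. In that fit 10.3% of all genes were lower. The call of Wars was lost there.

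Iars, which charges isoleucine, had the widest spread. It was 21.6, 48.9 and 30.9 FPKM in Th0, 19.6, 53.9 and 51.3 in the IL-6 group, 46.9, 39.95 and 49.6 in the TNF group and 31.4, 13.1 and 14.02 in Tnfr2-/- cells. Its fall in Tnfr2-/- cells (−1.28 ± 0.41, adjusted p = 0.0292) was lost without any TNF library or Tnfr2-/- library 2 or 4 and under CD3 and CD5 scaling. The remaining falls were smaller. Lars, for leucine, fell (−0.81 ± 0.19, adjusted p = 0.00601), as did Aars, for alanine (−0.72 ± 0.17, adjusted p = 0.00715). Yars, Tars and Nars, for tyrosine, threonine and asparagine, differed by −0.56, −0.45 and −0.39, and each call was lost without TNF replicate 3, Tnfr2-/- library 2 or library 4. Sars, Eprs and Cars, for serine, for glutamate and proline, and for cysteine, differed by −0.14, 0.02 and 0.10 and were not called.

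**Figure D3:**
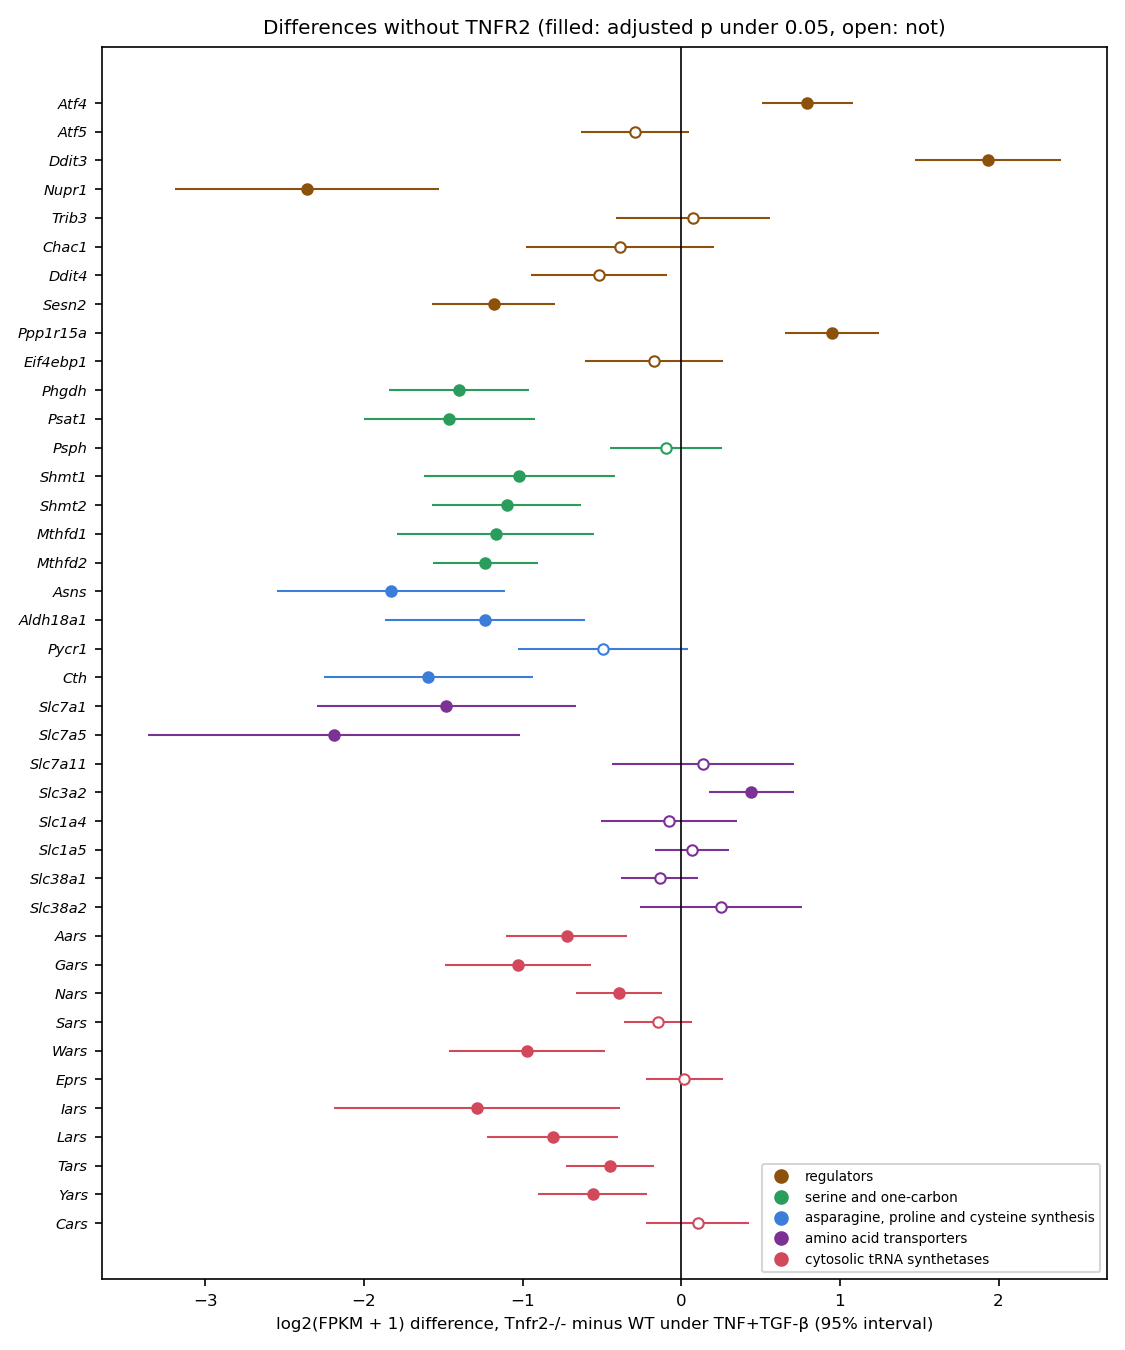
Difference in log2(FPKM + 1) between Tnfr2-/- and the TNF group for the 40 tested genes, with 95% intervals from limma. Filled points have an adjusted p under 0.05, and 21 of them lie below 0 and 4 above.

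Promoters with and without the TGATGNAA letters both held called genes. Of 12 tested genes with the letters, 0 were higher and 7 lower in Tnfr2-/- cells, and of 19 without them 4 were higher and 9 lower, where 19.9% of all tested genes were higher and 17.5% lower. Against Th0, 2 of the 12 were higher and 0 lower in the TNF group, and 2 of the 19 were higher and 5 lower. Of all tested genes 18.7% were higher and 13% lower there, or 31.7% in either direction. The counts in the IL-6 group were 3 and 0 of the 12, and 1 and 5 of the 19, where 14.1% of all tested genes were higher and 9.15% lower. The difference between these sets was not tested.

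The Tnfr2-/- libraries also differed among themselves. Of the 21 genes lower in Tnfr2-/- cells, 19 had their lowest Tnfr2-/- value in library 4 and 18 their highest in library 1. This order was not counted over all genes called lower, so it cannot be read as particular to these genes. The B cell marker sum was highest in library 4 and lowest in library 1. The sum of 8 T cell markers was 1067 to 1649.7 FPKM in Tnfr2-/- cells and 1965 to 2110.0 in the TNF group, and within Tnfr2-/- it was lowest in library 4 and highest in library 1. That of 10 myeloid markers ran against the B cell sum, with 1498, 1083 and 270.4 FPKM in libraries 1, 2 and 4, against 97.8 to 186 in the TNF group. Of the myeloid markers 6 of 10 were higher. Of 6 erythroid markers 3 of 4 tested were higher, with a sum of 5.98 to 131 FPKM against 0.62 to 7.44 in the TNF group and 1.63 to 21.29 in Th0. The calls of Hbb-bs and Hba-a2 came with overlapping libraries. The sum of 6 natural killer (NK) cell markers was 1.2 to 2.4 FPKM in Tnfr2-/- cells and 2.3 to 5.32 in the WT groups, with 2 tested and 0 called in Tnfr2-/- cells. Both were called in the IL-6 group against Th0, Klre1 higher (0.86) and Eomes lower (−1.34), and in the TNF against the IL-6 group, Klre1 lower (−0.99) and Eomes higher (1.06). All 12 cell cycle genes, Myc among them, were lower in Tnfr2-/- cells, with a sum of 524 to 1039 FPKM against 1832 to 2338. The part of these other cells and of cell division in the falls of the synthesis genes was not tested. Of the 8 T cell markers 0 were higher and 4 lower: Cd5 (−0.55 ± 0.16, adjusted p = 0.0182), Cd4 (−2.07 ± 0.55, adjusted p = 0.0117), Cd8a (−3.10 ± 0.36, adjusted p = 5.50e-05) and Cd8b1 (−2.14 ± 0.27, adjusted p = 0.000104). The other 4 were not called: Cd3e (−0.79), Cd3g (−0.26), Cd3d (−0.05) and Cd247 (0.33). The median of the 8 T cell markers was −0.67, that of the 12 cell cycle genes −1.73 and that of the serine and one-carbon genes −1.17. The difference between these lists was not tested. Scaled to the CD3 and CD5 genes, 6 of 7 serine and one-carbon genes and 3 of 4 genes of asparagine, proline and cysteine synthesis were called lower. Under that scaling, chosen after the data were seen, 8.78% of all genes were lower and 33.2% higher.

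**Figure D4:**
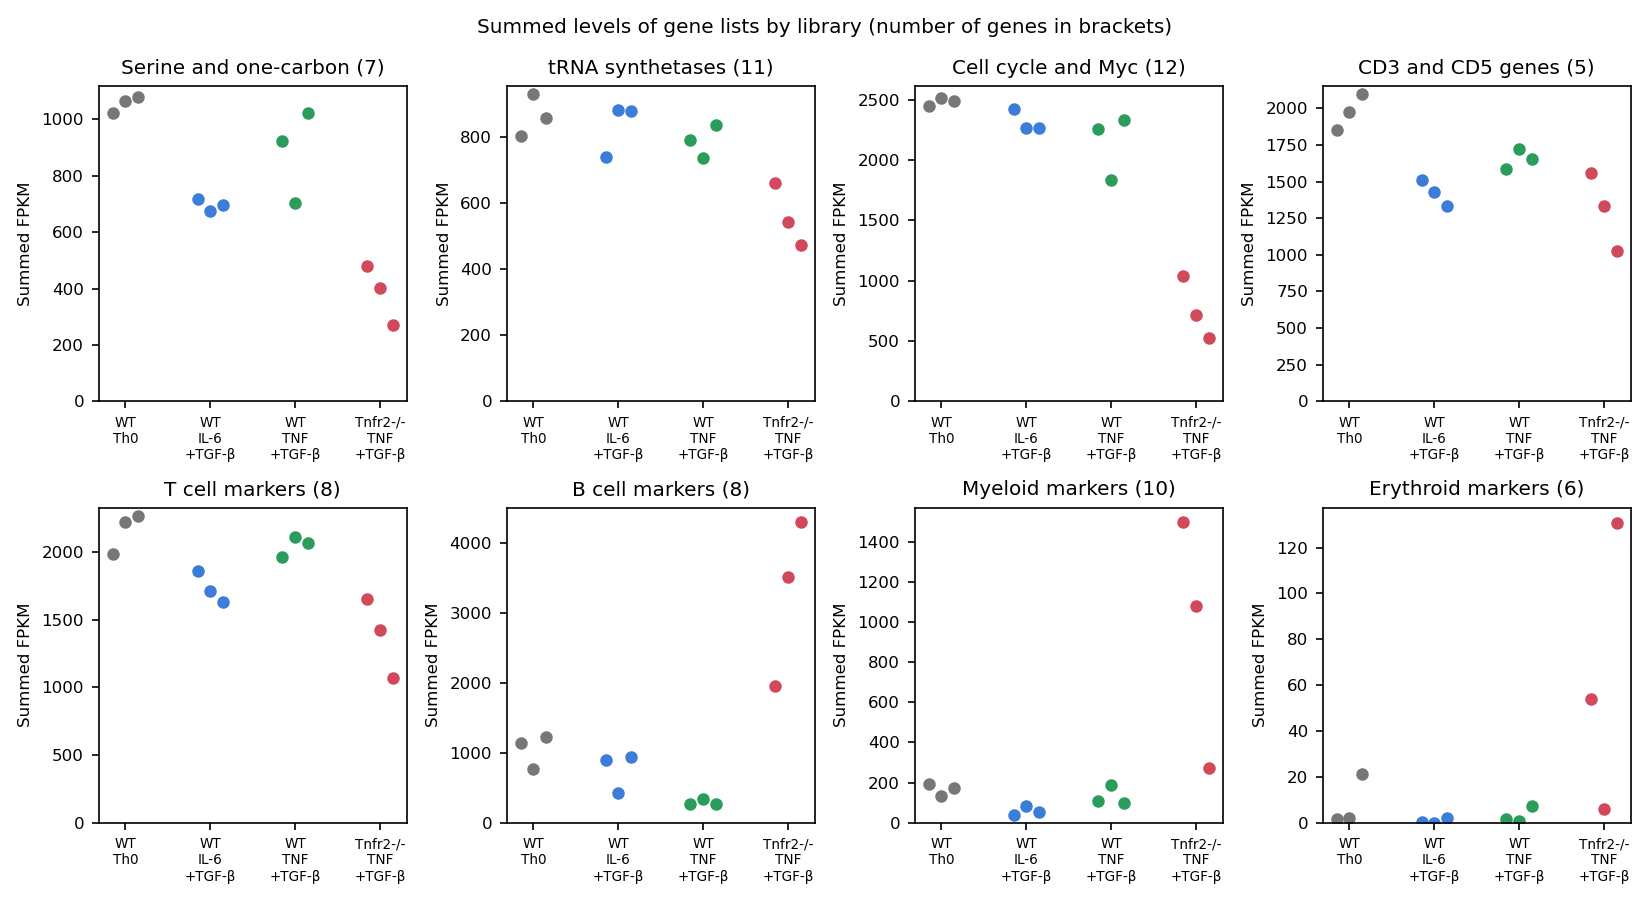
Summed FPKM per library of the serine and one-carbon genes (7), the tRNA synthetases (11), cell cycle genes with Myc (12), the CD3 and CD5 genes (5) and the markers of T, B, myeloid and erythroid cells. In the Tnfr2-/- libraries the serine sum is 271 to 479 and the cell cycle sum 524 to 1039, both below every WT library, while the B cell sum is 1960.0 to 4307, above every WT library.

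Other lists of the pathway are read against the shares of all tested genes. These were 19.9% higher and 17.5% lower in Tnfr2-/- cells. In the TNF group against Th0 they were 18.7% higher and 13% lower, or 31.7% in either direction. They were 14.1% and 9.15% in the IL-6 group, and 7.31% and 5.50% between the cytokine pairs. Upstream of ATF4, 1 of 12 tested genes of eIF2 control was higher (8.33%) and 3 lower (25%) in Tnfr2-/- cells, or 33.3% called against 37.4% of all tested genes. Eif2ak3, which encodes PERK, was 6.51, 8.02 and 8.42 FPKM in Th0, 15.4, 23.2 and 24.1 in the IL-6 group, 19.96, 30.3 and 15.4 in the TNF group and 54.8, 51.4 and 46.3 in Tnfr2-/- cells. The lowest values were in Th0 and the highest in Tnfr2-/- cells, with rises of 1.36 ± 0.23 in the TNF group (adjusted p = 0.000931), 1.32 ± 0.23 in the IL-6 group (adjusted p = 0.00127) and 1.23 ± 0.23 in Tnfr2-/- against WT cells (adjusted p = 0.00158). Ppp1r15b, the constitutive partner of the eIF2α phosphatase, fell in Tnfr2-/- cells (−0.72 ± 0.20, adjusted p = 0.0137), a call lost without Tnfr2-/- library 2 and under CD3 and CD5 scaling. Against Th0, 2 of 12 were higher and 2 lower in the TNF group, in the IL-6 group 1 and 0, and between the cytokine pairs 0 and 2.

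Of 7 bZIP factors that pair with ATF4 or relate to it, 2 were higher (28.6%) and 1 lower (14.3%) in Tnfr2-/- cells. Cebpb, which encodes C/EBPβ, rose in the TNF group against Th0 (2.93 ± 0.29, adjusted p = 1.37e-05) and was lower in Tnfr2-/- than in WT cells (−2.19 ± 0.29, adjusted p = 0.000132). Its values were 19.1, 15.5 and 18.7 FPKM in Th0, 24.4, 21.98 and 19.3 in the IL-6 group, 165, 90.5 and 189.5 in the TNF group and 36.9, 38.6 and 19.5 in Tnfr2-/- cells. Nfe2l2, which encodes the oxidative stress factor NRF2, was higher in Tnfr2-/- cells (1.47 ± 0.17, adjusted p = 5.31e-05), as was Atf3 (0.88 ± 0.29, adjusted p = 0.0331), whose call was lost without TNF replicate 1, 2 or 3 or Tnfr2-/- library 1 or 2. Atf3 fell against Th0 in the TNF group (−1.44 ± 0.29, adjusted p = 0.00301) and in the IL-6 group (−1.31 ± 0.29, adjusted p = 0.00635). Cebpd, which encodes C/EBPδ, rose in the IL-6 group (2.14 ± 0.30, adjusted p = 0.000235). In all, 1 was higher and 1 lower in the TNF group against Th0, 2 and 1 in the IL-6 group, and 1 and 3 between the cytokine pairs.

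Of 13 tested further ATF4 targets, 1 was higher (7.69%) and 5 lower (38.5%) in Tnfr2-/- cells. Fam129a, which encodes the stress protein Niban, rose in the TNF group against Th0 (3.40 ± 0.38, adjusted p = 4.42e-05) and fell in Tnfr2-/- against WT cells (−2.56 ± 0.38, adjusted p = 0.000346). Its values were 2.43, 4.21 and 2.90 FPKM in Th0, 5.32, 19.7 and 13.5 in the IL-6 group, 39.95, 50.98 and 37.2 in the TNF group and 10.1, 5.43 and 4.58 in Tnfr2-/- cells. The other large falls without TNFR2 were those of the amino acid carrier gene Slc43a1 (−1.21 ± 0.31, adjusted p = 0.00935) and of the mitochondrial folate gene Mthfd1l (−1.18 ± 0.24, adjusted p = 0.00229). Stc2, which encodes a secreted glycoprotein, fell against Th0 in the TNF group (−1.48 ± 0.16, adjusted p = 3.79e-05) and in the IL-6 group (−1.42 ± 0.16, adjusted p = 5.55e-05). Against Th0, 1 was higher and 3 lower in the TNF group, and in the IL-6 group 2 and 1, and between the cytokine pairs 2 and 1.

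Synthetases outside the 43 genes were also read, and their difference from the 11 above was not tested. Of 9 other cytosolic synthetases 0 were higher and 4 lower (44.4%) in Tnfr2-/- cells, the largest fall being that of the lysine enzyme gene Kars (−0.70 ± 0.13, adjusted p = 0.00166; lost under CD3 and CD5 scaling), and of 17 mitochondrial synthetases 0 were higher and 3 lower (17.6%). Against Th0 in the TNF group, where 0 of 11 of the cytosolic synthetases above were called, 0 of the 9 were higher and 4 lower, and 1 of the 17 was higher and 4 lower. The IL-6 group had 0 and 2 of the 9, and 0 and 2 of the 17.

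The chaperone arm of the unfolded protein response, which ATF6 and XBP1 run beside PERK, was read from 17 genes. In Tnfr2-/- cells 1 was higher (5.88%) and 4 lower (23.5%), or 29.4% called against 37.4% of all tested genes, with Calr, the calreticulin gene, falling most (−1.94 ± 0.43, adjusted p = 0.00419) and Dnajb9 higher (0.62 ± 0.19, adjusted p = 0.0246). The call of Dnajb9 was lost without TNF replicate 1 or 3 or Tnfr2-/- library 4 and under TPM. Against Th0 1 was higher and 4 lower in the TNF group, among them Sdf2l1 (−0.85 ± 0.20, adjusted p = 0.00754), while Derl3 rose (1.34 ± 0.20, adjusted p = 0.000329). In the IL-6 group 1 was higher and 0 lower, and between the cytokine pairs 1 and 0.

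Amino acid sensing by mTORC1 was read from 16 genes. In Tnfr2-/- cells 6 were higher (37.5%) and 2 lower (12.5%), with Sesn1, a relative of Sesn2, higher (1.20 ± 0.20, adjusted p = 0.000832), and Rragd, which encodes a Rag GTPase that brings mTORC1 to the lysosome, lower (−0.96 ± 0.28, adjusted p = 0.0199). That call of Rragd was lost without TNF replicate 2 or 3 or Tnfr2-/- library 2 or 4. Rragd rose in the TNF group (2.06 ± 0.28, adjusted p = 0.00021) and in the IL-6 group (1.72 ± 0.28, adjusted p = 0.000872) against Th0. Sesn3, another sestrin gene, rose in the IL-6 group (1.76 ± 0.14, adjusted p = 3.71e-06), as did the arginine sensor gene Castor1 (1.39 ± 0.15, adjusted p = 3.66e-05), and 6 genes in all were higher and 0 lower. The TNF group had 3 higher and 1 lower against Th0, and between the cytokine pairs 0 and 2.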

How the data were processed

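The 43 genes and the pathway and marker lists were chosen with earlier results of these data known. Per the submitters' processing notes, reads were handled with Trimmomatic (version not given), STAR 2.5.4 and RSEM 1.3.1 on mm10, and no source used here names the gene annotation. The deposited table gave every gene a single value for each library. The file header does not name the RSEM quantity, and the values were read as FPKM made by the authors, because column sums differed between libraries. The design had assumed estimated counts, and its fallback for FPKM was used. Nextera XT libraries from SMARTer cDNA, named in the labels' protocols, do not mark strand, so overlapping genes cannot be told apart. The Tnfr2-/- column numbered 4, where the labels have 3, was used as a member of its group.

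Genes that reached 1 FPKM in 3 or more of the 12 libraries were tested as log2(FPKM + 1) in limma 3.58.1 (R 4.3.3), with group means as the only terms, a variance prior following the mean level, and Benjamini-Hochberg adjustment over 13082 genes in each of 4 comparisons. The fit was tested on simulated data. Depth was estimated from the steps between low values of 8697 genes with 1 transcript. Coordinates came from GENCODE M21 (GRCm38) and promoter windows from RefSeq (GRCm38.p6), so the start of a gene can differ between them. All 43 genes are accounted for, and 1 promoter match is not reported here. Values per library are given for those of the 43 genes called with at least a 2-fold change and for some others chosen after their values were seen, and at most 3 called genes are named per pathway list and comparison. Alternatives were other pseudocounts (0.1 and 0.5), no filter or one of 5 FPKM, TPM, median-ratio, upper-quartile and CD3 and CD5 gene scaling, a constant variance prior, a replicate block, a fit of the 2 groups compared, and leaving out each library.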

Additional observations from a re-analysis of the deposited data

How the results depend on the processing

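Of 47 called differences of the 43 genes, 21 stayed called under every alternative run, 26 were lost under at least 1, and 0 changed direction. In Tnfr2-/- against WT cells the count of 4 higher and 21 lower genes moved to between 3 and 4 higher and between 16 and 23 lower when single libraries were left out. Of all genes 14.8% to 19.9% were higher and 11.9% to 20.4% lower in those runs. With the replicate block 13 were lower, where 10.3% of all genes were lower. The replicate numbers share only a number: over 15 pairs of same-numbered libraries, deviations from the group means correlated between −0.284 and 0.344, with 5 pairs over 0.1, and 6 of 12 libraries correlated best with their own number. Library 4 has no partner and carried its own term in the block, which fits it exactly. The Tnfr2-/- contrast of that fit therefore rests on Tnfr2-/- libraries 1 and 2 alone. The median of the serine and one-carbon genes was −0.84 with the block and −0.87 without library 4. That of the 11 tRNA synthetases was −0.38 with the block and −0.42 without library 4. The cause of calls lost under the block was not tested.

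In the TNF group against Th0, the 4 higher genes were 2 with no filter on low values, 7 scaled to the CD3 and CD5 genes, and 2 to 4 when single libraries were left out. Of all genes 10% were higher with no filter, and 13.1% to 17% when single libraries were left out. The 5 lower genes were 3 under TPM, 9 under median-ratio scaling, 1 scaled to the CD3 and CD5 genes, 8 with only the 2 groups compared, and 2 to 5 when single libraries were left out. The shares of all genes lower were 9.2% under TPM, 15.8% under median-ratio scaling and 17.5% with only the 2 groups compared. Leaving out single libraries gave 8.42% to 11.4%. TPM moved the median of all genes from 0.07 to 0.22. In the IL-6 group against Th0, the 6 lower genes were 3 with no filter, 3 under TPM, 0 scaled to the CD3 and CD5 genes and 1 to 8 when single libraries were left out, and the 4 higher genes were 13 scaled to the CD3 and CD5 genes. Of all genes 4.69% were lower with no filter, 7.26% under TPM, and 6.04% to 12.5% when single libraries were left out. Between the cytokine pairs, 3 genes were higher, 1 to 3 when single libraries were left out, and 2 were lower, in place of 0, scaled to the CD3 and CD5 genes. When single libraries were left out, 5% to 6.57% of all genes were higher there. Scaled to the CD3 and CD5 genes, 25.8% of all genes were higher and 5.72% lower in the TNF group against Th0. These shares were 35.8% and 3.76% in the IL-6 group, and 4.87% and 9.35% between the cytokine pairs. The cause of these moves was not tested. Of 105 called differences of genes in the pathway and cell cycle lists, 49 stayed called under every alternative run and 56 were lost or turned under at least 1. Scaled to the CD3 and CD5 genes, 2 turned: Dars in the IL-6 group against Th0 to 0.059 and Eif2b5 in Tnfr2-/- cells to 0.011. Values of Slc7a11, Chac1, Vldlr, Cbs and Slc7a3 lie near the level of a few fragments, which limits what can be detected for them.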
